A study of Homo sapiens with 6 samples.

Results

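The gene group described here holds 36 genes of the decision to enter S phase: the D-type, E-type and A-type cyclins and their kinases, the CDK inhibitors, the RB family of pocket proteins, the E2F and DP transcription factors, ubiquitin ligase receptors that act on these proteins, and subunits of the MuvB and B-MYB complexes. Its members were taken by symbol from a count table of 58395 genes, by a list of symbols that uses no measured value but was drawn up with earlier results of these data known. The table held all 36, and 34 passed the filter on low counts. MDA-MB-231, an established cell line from a human breast adenocarcinoma, was transfected with a non-targeting siRNA (siCTR, 3 libraries) or with the siRNA siCRP2#a against CSRP2, the gene of the cytoskeletal LIM protein CRP2 (siCRP2, 3 libraries). Both groups carried a transfected siRNA and, by the sample labels, were collected 65 hours after transfection. The study's methods for siRNA transfection give a slightly later time. The comparison of siCRP2 with siCTR asks which transcripts changed when CRP2 was depleted. A single siRNA sequence stood for the depletion, so its effect on CSRP2 and any effect it has on other transcripts cannot be told apart. The study describes the libraries of a group as biological replicates. What set them apart, such as separate cultures or days, is not given in the sources used here, so each p-value speaks for the spread among these libraries only.

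As background, cyclins activate cyclin-dependent kinases (CDKs), and the CDK inhibitors of the CIP/KIP and INK4 families hold these kinases back. Cyclin D with CDK4 or CDK6, and later cyclin E with CDK2, phosphorylate the pocket proteins RB, p107 and p130, which otherwise bind E2F factors and keep their target genes low. In resting cells p107 or p130, repressor E2Fs, a DP partner and the MuvB core form the DREAM complex on cell cycle promoters, and later in the cycle the MuvB core joins B-MYB to raise genes of mitosis. Much of this control acts on proteins, by phosphorylation and degradation, and was not measured by RNA sequencing. The libraries came from whole wells, so more cells in a phase of the cycle and more transcript per cell cannot be told apart.

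The libraries held 17336798 to 39115778 counts. A floor of 3 counts corresponded to 0.0768 to 0.175 CPM (counts scaled to the library total), which covers counting error only. CSRP2 was at 13.7, 11.7 and 11.4 CPM in the siCTR libraries and at 2.17, 1.78 and 1.89 CPM in the siCRP2 libraries, a change of -2.66 on the log2 scale (SE 0.178, adjusted p = 2.4e-08, edgeR quasi-likelihood test with Benjamini-Hochberg adjustment over 23806 genes, used for every adjusted p below unless stated). VIM, a gene high in this mesenchymal line, was at a mean of 1782 CPM in siCTR and 1625 CPM in siCRP2. SPARC, another marker of the line, was at means of 4.0 and 2.0 CPM. The luminal gene PGR had no count in any library, and 3 of the 8 luminal markers were under 1 CPM in both groups. The luminal markers summed to 677 to 881 CPM in siCTR and 738 to 765 CPM in siCRP2, mostly from KRT18 (means of 680 and 661 CPM). AXL was the 1 of 6 markers of the line that passed, as lower. Of the 8 luminal markers CDH1 and ERBB3 passed as higher, and of the 9 leukocyte and endothelial markers PECAM1 and KDR passed as lower. The summed level of the latter list was 15.7 to 27.6 CPM in siCTR and 8.04 to 9.95 CPM in siCRP2, and 7 of its 9 genes were under 1 CPM in both groups. Their part in the results was not tested.

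Of the 34 members tested, 15 were higher and 5 were lower in CRP2-depleted cells at an adjusted p under 0.05, and 14 did not pass. Among all genes tested 12.5% passed as higher and 11.5% as lower. Every tested member had a mean of at least 1 CPM, and among the 13196 genes at that level 21.9% were higher and 17.8% lower, against 44.1% and 14.7% of the members. The lower share of the members was therefore near the background and the higher share above it, a description of this chosen list that no test supports. The 3 libraries of siCRP2 lay wholly above those of siCTR for 16 members and wholly below for 7, where 19.4% and 18.0% of all genes tested did so. The members' median change was 0.11 on the log2 scale, against -0.02 for all genes tested and 0.05 for genes of at least 1 CPM.

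**Figure D1:**
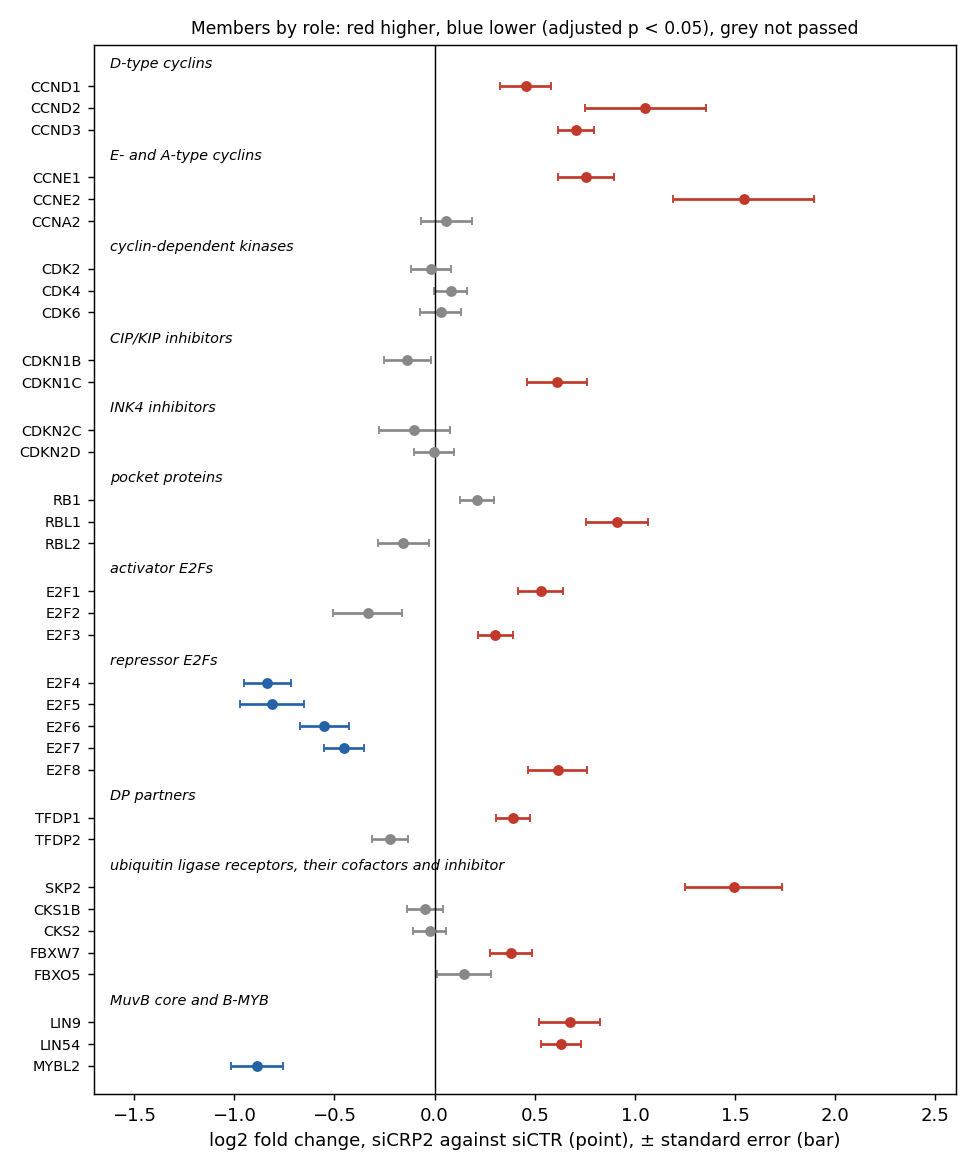
Log2 fold change of siCRP2 against siCTR for the 34 tested members, in order of role, with bars of 1 standard error on either side, where red members passed the test as higher, blue ones passed as lower and grey ones did not pass. The highest values belong to CCNE2 (1.54) and SKP2 (1.49), and MYBL2 (-0.89), E2F4 (-0.83) and E2F5 (-0.81) are at the lower end.

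All 3 D-type cyclins, the subunits that link growth signals to CDK4 and CDK6, were higher in CRP2-depleted cells. CCND3 (cyclin D3, ENSG00000112576) was at 164, 161.5 and 188 CPM in the siCTR libraries and at 264, 278.5 and 296 CPM in the siCRP2 libraries. Each siCRP2 library was above every siCTR library, and the change was 0.71 (SE 0.089, adjusted p = 1.9e-05). CCND1 (cyclin D1, ENSG00000110092), the most abundant member in CPM, was at 560, 418.5 and 386 CPM in siCTR and at 631, 664 and 576 CPM in siCRP2. The groups did not overlap, although the highest siCTR library came close to the lowest siCRP2 library, and the change was 0.45 (SE 0.127, adjusted p = 0.021). Without the siCRP2 library coded 0412, the siCRP2 library coded 0611 or the siCTR library coded 0611, CCND1 had adjusted p-values of 0.072, 0.11 and 0.099. CCND2 (cyclin D2), at 1.50, 2.10 and 0.915 CPM in siCTR and 4.18, 2.58 and 2.59 CPM in siCRP2, rested on 94 and 235 counts in all. Its change was 1.05 (SE 0.303, adjusted p = 0.017), and the adjusted p was 0.098 without the siCRP2 library coded 0412 and 0.059 without the siCTR library coded 1311.

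The E-type cyclins, which activate CDK2 at the start of S phase, were both higher. CCNE2 (cyclin E2) was at 21.8, 12.7 and 8.79 CPM in siCTR and at 47.0, 39.4 and 40.5 CPM in siCRP2. Every siCRP2 library was above the highest siCTR library, and the siCTR libraries differed widely among themselves. The change of 1.54 was the largest among the members, with an SE of 0.353 and an adjusted p of 0.035. Leaving out any siCRP2 library, or the siCTR library coded 0611, moved the adjusted p of CCNE2 to 0.068 to 0.10, with a change of 1.46 to 1.56. INTS8 on the opposite strand covers 37.0% of the annotated exon bases of CCNE2 and changed by 0.37 (SE 0.104, adjusted p = 0.015). The labels name a standard and the study's methods a stranded mRNA kit. The strand setting of the count is not given in the sources used here, so whether INTS8 reads entered the count of CCNE2 is not known. CCNE1 (cyclin E1, ENSG00000105173) went from 9.48, 10.1 and 11.8 CPM to 15.8, 17.5 and 19.6 CPM without overlap, a change of 0.76 (SE 0.14, adjusted p = 0.00066). CCNA2 (cyclin A2), the cyclin of S phase and G2, was at 157, 128.5 and 119 CPM in siCTR and at 166, 133 and 123 CPM in siCRP2. The groups overlapped, and the change was 0.06 with a 95% interval of -0.22 to 0.34 (adjusted p = 0.80). EXOSC9 on the opposite strand covers 9.24% of the exon bases of CCNA2 and changed by 0.70 (adjusted p = 1.4e-05).

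The kinases themselves did not pass the test. CDK2, the partner of cyclins E and A, changed by -0.02 (95% interval -0.23 to 0.20) around a mean of 56.8 CPM in siCTR. CDK4 changed by 0.08 (-0.09 to 0.26) and CDK6, the other partner of the D-type cyclins, by 0.03 (-0.18 to 0.25), from means of 98.0 and 76.0 CPM. All 3 intervals include 0. TSPAN31 on the opposite strand covers 44.2% of the exon bases of CDK4 and was lower by 0.72 on the log2 scale (adjusted p = 0.0041).

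Among the CIP/KIP inhibitors, CDKN1C (p57) was at 7.62, 9.96 and 9.11 CPM in siCTR and at 15.1, 12.8 and 12.8 CPM in siCRP2. The groups did not overlap, and the change was 0.61 (SE 0.149, adjusted p = 0.0057). CDKN1B (p27), the inhibitor that the SKP2 ubiquitin ligase marks for degradation, was at 35.3, 46.4 and 34.8 CPM in siCTR and at 35.6, 34.6 and 35.6 CPM in siCRP2. Its siCRP2 libraries lay at the level of the lower siCTR libraries, and the change was -0.14 (95% interval -0.38 to 0.11, adjusted p = 0.45). Of the INK4 inhibitors, which bind CDK4 and CDK6, CDKN2A (p16) and CDKN2B (p15) had 0 counts in all 6 libraries, which allows up to the floor given above, and were not tested. Loss of the CDKN2A locus is a known feature of this line. CDKN2C (p18) changed by -0.10 (-0.50 to 0.29) from 29.8 CPM and CDKN2D (p19) by 0.00 (-0.22 to 0.21) from 36.2 CPM, and neither passed.

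The pocket proteins differed among themselves. RBL1 (p107, ENSG00000080839), itself a gene under E2F control, was at 57.3, 42.2 and 39.4 CPM in siCTR and at 102, 83.7 and 76.4 CPM in siCRP2. All siCRP2 libraries were above all siCTR libraries, and the change was 0.91 (SE 0.156, adjusted p = 0.0023). RB1 (the retinoblastoma protein) was at 108, 101 and 94.4 CPM in siCTR and at 124, 114 and 114 CPM in siCRP2. These did not overlap either, but the change of 0.21 (95% interval 0.03 to 0.39) did not pass, at an adjusted p of 0.085, and passed with the library code as a block (adjusted p = 0.0032) or without the siCTR library coded 0412 (0.043). RBL2 (p130), the pocket protein of resting cells, changed by -0.16 (-0.43 to 0.11) from a mean of 56.2 CPM and did not pass.

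**Figure D2:**
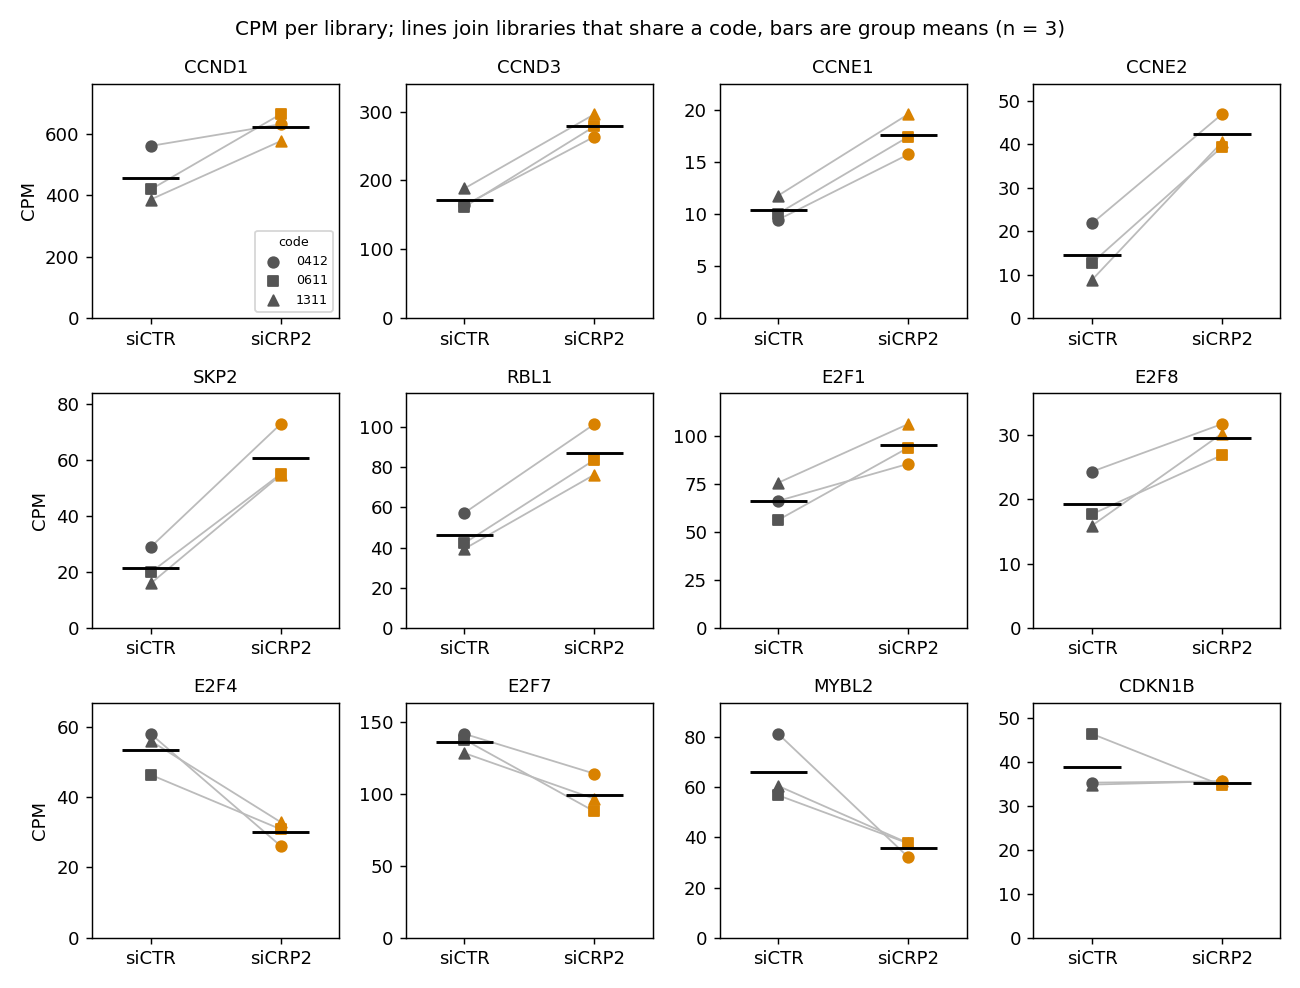
CPM in each of the 6 libraries for 12 members, 1 panel each with an axis from 0, where the marker gives the library code, a line joins the siCTR and siCRP2 libraries of a code and horizontal bars are the group means. The siCRP2 points of CCND3, CCNE1, RBL1 and SKP2 lie above all siCTR points and those of E2F4, E2F7 and MYBL2 below them, while those of CDKN1B overlap.

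The E2F factors did not change together. Of the activator E2Fs, which raise genes of DNA replication, E2F1 and E2F3 rose, and of the repressor E2Fs, E2F4, E2F5, E2F6 and E2F7 fell and E2F8 rose. E2F1 (ENSG00000101412) was at 66.2, 56.3 and 75.7 CPM in siCTR and at 85.5, 94.0 and 106 CPM in siCRP2, with no overlap and a change of 0.53 (SE 0.112, adjusted p = 0.0026). E2F3 went from 69.3, 66.1 and 68.5 CPM to 89.7, 78.7 and 83.4 CPM, a change of 0.30 (SE 0.0864, adjusted p = 0.016). The siCTR libraries of E2F3 were close to each other and all below siCRP2. Its adjusted p was 0.072 to 0.084 without the siCRP2 library coded 0412 or 1311 or the siCTR library coded 0611. With the library code as a block and all libraries, the adjusted p of E2F3 was 4e-05. Within the codes 0412, 0611 and 1311 the change of E2F3 was 0.372, 0.252 and 0.282. E2F2, the least abundant of the E2F family, was at 6.71, 5.65 and 5.95 CPM in siCTR and at 4.76, 4.55 and 5.20 CPM in siCRP2. Its siCRP2 libraries were the lower ones, but the change of -0.33 (95% interval -0.70 to 0.03) did not pass (adjusted p = 0.19).

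E2F4 (ENSG00000205250), with E2F5 a factor that works through p107 and p130 in the DREAM complex, was at 58.1, 46.4 and 56.1 CPM in siCTR and at 26.1, 30.9 and 32.9 CPM in siCRP2. No siCRP2 library reached the lowest siCTR library, and the change was -0.83 (SE 0.116, adjusted p = 5.0e-05), 0.561 times the siCTR level. E2F5 was at 17.8, 20.2 and 22.6 CPM in siCTR and at 8.57, 13.1 and 12.6 CPM in siCRP2, a change of -0.81 (SE 0.159, adjusted p = 0.0013). RBIS on the opposite strand covers 16.6% of the exon bases of E2F5 and changed by 0.23 (adjusted p = 0.11). E2F6, a repressor that does not bind pocket proteins, went from 19.6, 19.7 and 21.6 CPM to 13.1, 13.4 and 14.9 CPM. Both groups were tight and did not overlap, and the change was -0.55 (SE 0.122, adjusted p = 0.0029).

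E2F7 and E2F8 are the atypical E2Fs, which repress E2F targets late in S phase without a DP partner, and they changed in opposite directions. E2F7 (ENSG00000165891) was at 142, 138 and 128 CPM in siCTR and at 114, 87.8 and 96.6 CPM in siCRP2, a change of -0.45 (SE 0.0976, adjusted p = 0.0024). E2F8 (ENSG00000129173) was at 24.3, 17.7 and 15.9 CPM in siCTR and at 31.7, 26.9 and 30.3 CPM in siCRP2, a change of 0.61 (SE 0.146, adjusted p = 0.0056). Neither overlapped between the groups. TFDP1, the main DP partner of the E2Fs, went from 149, 132 and 126 CPM to 175, 179 and 179 CPM, a change of 0.39 (SE 0.0857, adjusted p = 0.0027). TFDP2, the other DP protein, was at 66.8, 66.0 and 62.4 CPM in siCTR and at 57.0, 58.2 and 52.3 CPM in siCRP2. It did not overlap between the groups, and its change of -0.22 (95% interval -0.41 to -0.03) had an adjusted p of 0.084, which was 0.0055 with the library code as a block and 0.026 under the filterByExpr count filter of edgeR.

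To compare levels between related genes, CPM were divided by the kilobases of annotated exon, and each gene was expressed as a share of its family. Within the 8 E2F genes E2F1 held 26.9%, 25.5% and 30.8% in the siCTR libraries and 36.3%, 40.9% and 42.0% in the siCRP2 libraries, a mean of 27.7% ± 2.75 (SD, n = 3) against 39.7% ± 3.03. E2F4 went from 16.8% ± 0.974 to 9.35% ± 0.938 and E2F7 from 24.6% ± 2.19 to 17.8% ± 2.52. The shares of all 8 E2F genes were without overlap between the groups, higher in siCRP2 for E2F1, E2F3 and E2F8 and lower for the others. For each the two-sided exact permutation test gave p = 0.1, the smallest value that 3 against 3 libraries allow, and 0.175 after adjustment over 21 shares. Shares of a family sum to a whole, so they are not independent of each other.

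In siCTR the level per kilobase of exon was highest for E2F1 (24.6 ± 3.61 CPM per kb) and E2F7 (21.6 ± 1.09), which overlapped within their SDs, followed by E2F4 (14.9 ± 1.73) and E2F3 (13.1 ± 0.324). In siCRP2 E2F1 (35.4 ± 3.89) stood above E2F3 (16.2 ± 1.06) and E2F7 (15.8 ± 2.12), and E2F4 was at 8.34 ± 0.969. The order depended on the length used. Per kilobase of the canonical transcript E2F4 was at 25.4 CPM in siCTR, beside 24.6 for E2F1 and 23.8 for E2F7. The direction of every E2F share was the same with canonical lengths and without division by length, but sizes moved. The difference for E2F5 was -3.69 points with canonical lengths against -1.68. That for E2F3 was 5.32 points without division against 3.31, and that for E2F2 -0.161 points with canonical lengths against -0.272. E2F4 went from 23.0% to 13.8% with canonical lengths and from 13.7% to 8.15% without division. E2F1 went from 16.9% to 25.9% without division, and E2F6 from 5.71% to 4.16% with canonical lengths.

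**Figure D3:**
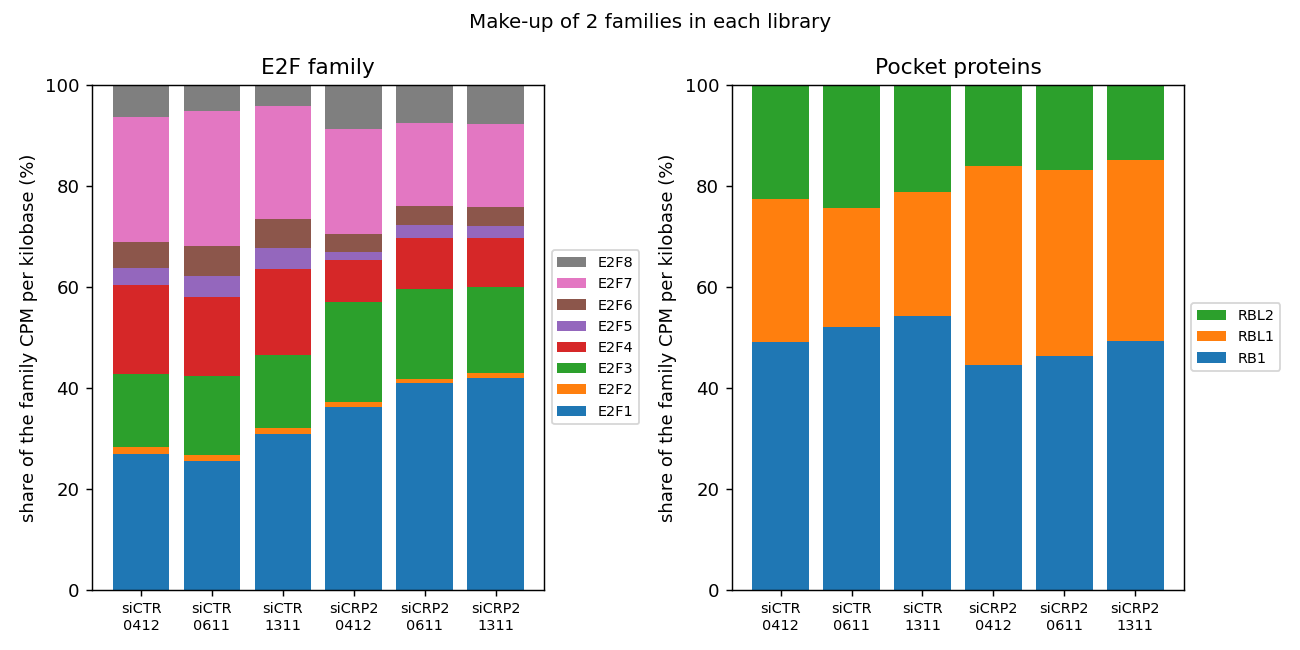
Stacked bars give the share of each gene in the summed CPM per kilobase of exon of the E2F family (left) and the pocket proteins (right), in percent, in each of the 6 libraries. E2F1 goes from a mean of 27.7% to 39.7% of the E2F family and RBL1 from 25.4% to 37.4% of the pocket proteins.

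In the pocket protein family RBL1 went from 25.4% ± 2.50 to 37.4% ± 1.83 and RBL2 from 22.8% ± 1.55 to 15.9% ± 1.04, both without overlap (exact permutation p = 0.1 each, 0.175 adjusted). RB1 was the largest of the pocket proteins in both groups, at 51.8% and 46.7%. Its libraries overlapped between the groups, but within the codes 0412, 0611 and 1311, which pair the libraries, its share was lower in siCRP2 by similar amounts (differences of -4.57, -5.82 and -4.91 points). CDKN1B held 53.8% ± 2.78 of the CIP/KIP pair of members in siCTR and 41.1% ± 2.20 in siCRP2 (exact permutation p = 0.1, 0.175 adjusted). Which of this pair was the larger depended on the length used, since CDKN1B held 65.7% in siCRP2 with canonical lengths and 72.2% without division by length, below its 76.1% and 81.3% in siCTR. TFDP1 went from 86.8% to 91.0% of the DP pair without overlap. For TFDP1 the difference was 4.17 points, and 8.60 points without division by length. The shares of the D-type cyclins overlapped, CCND1 holding 75.8% in siCTR and 72.8% in siCRP2 (exact permutation p = 0.4, 0.494 adjusted), with differences of -6.30, -1.53 and -1.14 points within the codes.

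Among the ubiquitin ligase components, SKP2 (ENSG00000145604), the F-box protein that binds p27 for degradation, was at 28.9, 19.9 and 15.9 CPM in siCTR and at 73.0, 55.1 and 54.7 CPM in siCRP2. The lowest siCRP2 library was far above the highest siCTR library, and the change was 1.49 (SE 0.243, adjusted p = 0.0056), with 1.33, 1.47 and 1.78 within the library codes 0412, 0611 and 1311. CKS1B, the cofactor that SKP2 needs to bind p27, changed by -0.05 (95% interval -0.23 to 0.14) from 75.3 CPM and CKS2, its relative, by -0.02 (-0.20 to 0.15) from 116 CPM, and neither passed. FBXW7, the F-box protein that targets cyclin E, was at 24.4, 24.4 and 24.2 CPM in siCTR and at 31.5, 30.5 and 33.1 CPM in siCRP2. The siCTR libraries were nearly equal and all below siCRP2, and the change was 0.38 (SE 0.104, adjusted p = 0.011), with an adjusted p of 0.094 without the siCRP2 library coded 1311. FBXO5 (EMI1), an inhibitor of the APC/C ligase, changed by 0.15 (-0.14 to 0.43) and did not pass.

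Of the complexes that carry cell cycle repression and activation, LIN54, the DNA-binding subunit of MuvB, was at 35.3, 30.9 and 32.5 CPM in siCTR and at 53.8, 48.3 and 50.8 CPM in siCRP2, a change of 0.63 (SE 0.0993, adjusted p = 0.00016). LIN9, another MuvB subunit, was at 18.3, 14.0 and 12.9 CPM in siCTR and at 28.8, 22.4 and 21.3 CPM in siCRP2, a change of 0.68 (SE 0.153, adjusted p = 0.0039). Both rose without overlap between the groups. MYBL2 (B-MYB, ENSG00000101057), the partner that turns MuvB into an activator, was at 81.4, 56.8 and 60.6 CPM in siCTR and at 32.2, 37.7 and 37.7 CPM in siCRP2. No siCRP2 library reached the lowest siCTR library, and the change of -0.89 (SE 0.130, adjusted p = 0.0002) was the most negative among the members. It was -1.34 within the code 0412 and -0.59 and -0.68 within the codes 0611 and 1311.

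The codes 0412, 0611 and 1311 stand in the column names, 1 library of each group sharing each code. For 20 of the 34 tested members the highest library of siCTR and the highest of siCRP2 had the same code, which was 0412 for 16 of them, 1311 for 4 and 0611 for 0. The same count was not made over all genes. Deviations of genes at large also correlated by code, so the count cannot be read as particular to the members. SKP2, RBL1, LIN9, CCNA2 and RB1 were among those highest in the code 0412. The difference of siCRP2 from siCTR within a code was 1.11, 1.63 and 2.20 for CCNE2, in the order 0412, 0611 and 1311.

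E2F sites in promoters are how several members are known to regulate each other. The E2F element was searched for as TTTCCCGC, TTTGGCGC, TTTCGCGC or TTTGCCGC on both strands of the 300 bases around the start site (250 before and 50 after) that RefSeq gives for GRCh38.p14. Of the 29 members with an entry, 5 (17.2%) held it, against 3.33% of 27305 promoters. The start site that RefSeq gives lay within 500 bases of the canonical GENCODE start for 24 of the 29, and all 5 matches were among these. For CCND3, CDKN2A, CDKN2C, RB1 and FBXO5 the window lay elsewhere, so the promoter of their canonical transcript was not searched. The 5 members with a match were all 3 activator E2F genes, RBL1 and TFDP1. E2F1, E2F3, RBL1 and TFDP1 rose in CRP2-depleted cells, and E2F2 did not pass. CCNE1, SKP2, FBXW7, LIN9 and LIN54 rose as well and held no match, and the risen members CCND1, CCND2, CCNE2, CDKN1C and E2F8 had no entry. For the 5 members with a match, the 130 bases before the start site carry every match in their promoters. Matches are printed in capitals, and a match on the other strand reads as its reverse complement.
E2F1 (chr20:33686386-33686515, - strand): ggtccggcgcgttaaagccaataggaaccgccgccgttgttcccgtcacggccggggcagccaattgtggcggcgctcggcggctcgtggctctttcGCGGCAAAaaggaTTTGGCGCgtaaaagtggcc
RBL1 (chr20:37095998-37096127, - strand): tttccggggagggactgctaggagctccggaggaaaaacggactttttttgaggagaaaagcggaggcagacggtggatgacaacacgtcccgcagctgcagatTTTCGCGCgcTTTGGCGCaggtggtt
E2F3 (chr6:20401749-20401878, + strand): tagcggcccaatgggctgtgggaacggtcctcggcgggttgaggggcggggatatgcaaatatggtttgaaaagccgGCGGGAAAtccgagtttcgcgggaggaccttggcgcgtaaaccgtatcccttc
TFDP1 (chr13:113584623-113584752, + strand): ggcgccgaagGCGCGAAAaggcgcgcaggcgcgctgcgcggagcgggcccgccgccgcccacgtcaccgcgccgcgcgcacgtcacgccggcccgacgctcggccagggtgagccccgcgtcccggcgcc
E2F2 (chr1:23531234-23531363, - strand): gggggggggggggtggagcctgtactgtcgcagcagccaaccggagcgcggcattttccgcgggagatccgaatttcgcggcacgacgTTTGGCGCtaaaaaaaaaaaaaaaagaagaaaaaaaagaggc
RBL1 held a pair of matches with 2 bases between them, and E2F1 a pair on opposite strands. None of the 3 repressor E2F genes with an entry held a match, and E2F5 and E2F8 had no entry. CCNE1, CCNA2 and MYBL2 held none either. Only the exact letters given above were searched for, so a site spelled otherwise was not counted. The CHR element TTTGAA, by which MuvB binds its targets, was in 5 of 29 member promoters (17.2%), against 15.4% of all. A match describes the letters of the window and says nothing of binding in these cells.

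The heptamer GCCTCAC was taken up because an earlier analysis had singled it out from these same fold changes, so its distribution is a description and supports nothing. The canonical transcript held it for 23.9% of 14858 protein-coding genes tested, 46.5% of those that were lower and 11.9% of those that were higher. Among the members it was in 4 of the 5 that fell (E2F4, E2F6, E2F7 and MYBL2, not E2F5), in 1 of the 15 that rose (CCND1) and in 4 of the 14 that did not pass (E2F2, TFDP2, CDK2 and RBL2). It lay in the 3′ UTR of E2F6 and in the coding sequence of E2F4, E2F7, MYBL2 and CCND1. The sites of the members that changed are shown with 10 bases on either side, the heptamer in capitals, and the positions are those of the heptamer in GRCh38.
E2F4 (chr16:67194887-67194893, + strand): gtcccaggaaGCCTCACgtccaaatag
E2F7 (chr12:77030055-77030061, - strand): tgtgccctctGCCTCACtgttcatgct
MYBL2 upstream site (chr20:43702851-43702857, + strand): tcctgtaacaGCCTCACgcccaagagc
MYBL2 downstream site (chr20:43715162-43715168, + strand): aactcttccaGCCTCACcctgtcaggt
E2F6 (chr2:11445342-11445348, - strand): acatcccagtGCCTCACaccatgcctg
CCND1 (chr11:69648102-69648108, + strand): tcctactaccGCCTCACacgcttcctc

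Other genes of the pathway were read from lists written with earlier results of these data known. Of 46 G1/S genes known as E2F targets, 33 (71.7%) were higher and 1 (2.17%) was lower, with a median change of 0.66. The shares among genes averaging 1 CPM or more were 21.9% and 17.8%. CDC25A, the phosphatase that activates CDK2, changed by 2.13 (from 17.9 to 78.4 CPM, adjusted p = 2.7e-09) and MCM10 of replication initiation by 1.24 (1.2e-06). The gene that fell was RRM2, a subunit of ribonucleotide reductase, at 60.2, 41.6 and 36.5 CPM in siCTR and 12.2, 12.5 and 11.2 CPM in siCRP2, a change of -1.95 (SE 0.172, adjusted p = 9.6e-06). Of 40 promoters of the listed genes 22 (55.0%) held the E2F element. The genes were listed as E2F targets, so a high share was set by that choice.

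Of 34 genes of G2 and mitosis listed as DREAM targets with a CHR element, 13 (38.2%) were lower and 4 (11.8%) higher, with a median change of -0.17. Among genes averaging 1 CPM or more 17.8% were lower and 21.9% higher. CCNB1 (cyclin B1, the mitotic cyclin) changed by -0.78 (adjusted p = 9.1e-06), the mitotic kinase AURKA by -0.62 (3.0e-05) and the APC/C activator CDC20 by -0.59 (7.9e-05). KIF23, ECT2 and HMMR were among the higher ones, at 0.35, 0.27 and 0.49, and the higher count was 0 without the siCRP2 library coded 0412 and 2 under DESeq2. FOXM1, the factor that acts with B-MYB on these genes, was at 137 CPM in both groups (change -0.01 with SE 0.0954). The CHR letters were in 18 of 28 (64.3%) of the promoters of the listed genes. These genes were listed as having the element, so a high share was set by that choice.

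Among the other CDK inhibitors and modulators 1 of 9 was higher and 1 lower (11.1% each), not above the shares of all genes tested. CDKN1A (p21), the CIP/KIP relative of the members CDKN1B and CDKN1C, was at 104, 106 and 95.6 CPM in siCTR and at 163, 151 and 132 CPM in siCRP2, a change of 0.54 (SE 0.0922, adjusted p = 0.00032). CABLES2, of a family of CDK-binding adaptor proteins, changed by -1.24 (adjusted p = 2.0e-06). Other settings gave 1 to 2 higher and 1 to 3 lower in this list. Of 16 other cyclins and CDKs 4 were higher and 3 lower (25.0% and 18.8%), near the 21.9% and 17.8% of genes averaging 1 CPM or more, among them CCNA1 (0.93), CCNG1 (0.34) and CDK7 (0.28), and CCNB1, CDK16 (-0.34) and CCNF (-0.44). Here other settings gave 1 to 5 higher and 2 to 6 lower. Of 7 other DREAM and MuvB subunits and partners 2 were higher and 1 lower (28.6% and 14.3%), again near the 21.9% and 17.8% of genes averaging 1 CPM or more. The MuvB subunit RBBP4 (0.42, adjusted p = 0.00082) and MYBL1, a relative of B-MYB (0.86, 0.0017), were higher. DYRK1A, the kinase that promotes DREAM assembly (-0.42, 0.0028), was lower. CCNB1 and several other genes stand in more than 1 of these lists.

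**Figure D4:**
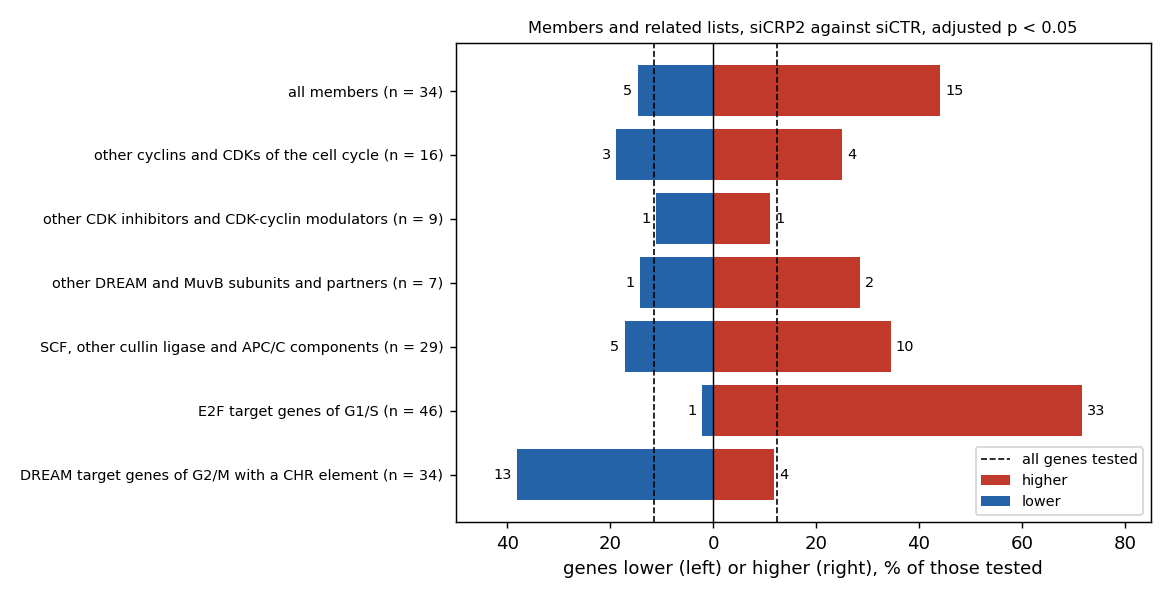
Percent of tested genes higher and lower in siCRP2 at an adjusted p under 0.05, as red bars to the right and blue bars to the left, for the members and the other pathway lists, with gene numbers at the bars and dashed lines for all 23806 genes tested. The E2F targets of G1/S have 71.7% higher and 2.17% lower, the listed DREAM targets of G2/M 11.8% and 38.2%, and all genes 12.5% and 11.5%.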

How the data were processed

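Reads of 6 libraries of MDA-MB-231 RNA were aligned by the authors to GRCh38 with STAR, whose gene count option gave the deposited raw counts. GRCh38 and hg38 are the builds named in the submitters' processing notes. Neither the STAR version nor the annotation or strand setting is given in the sources used here. An unnamed text column with gene names was left out. The name of a column gave its group, and the code it also carries is tied to no label.

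The filter asked for a count in 2 or more of the 3 libraries of either group (23806 genes). After TMM scaling (factors 0.989 to 1.03), siCRP2 was tested against siCTR in edgeR 4.0.16 (R 4.3.3), using its robust quasi-likelihood test with Benjamini-Hochberg adjustment and a threshold of 0.05. Intervals are 95% and use the degrees of freedom of the fit. CPM used TMM-scaled totals. GENCODE 44 (57754 of 58395 genes matched) gave symbols, exon lengths and transcripts, and RefSeq the promoters. Shares of a family were compared by exact permutation. Named genes were CSRP2, all 36 members and, from each other pathway list, up to 3 genes with the smallest p in each direction, of which 1 is not reported here. FOXM1 and the cell markers named were chosen after their values were seen. The members and lists were chosen with earlier results of these data known.

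Deviations from the group means correlated at 0.735, 0.479 and 0.759 for libraries sharing a code and at most 0.122 otherwise (9629 genes). The codes therefore pair the libraries, and a blocked fit was added. The alternatives were DESeq2 1.42.0, the edgeR exact test, RLE scaling, filterByExpr, no filter, thinned counts, leaving out each library and, for shares, other lengths, of which canonical transcript lengths were chosen after seeing the data. The quasi-likelihood fit without the block was tested on simulated counts that held no code effect, and the share step on made-up values. The alternatives and the sequence searches were not tested in this way.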

Additional observations from a re-analysis of the deposited data

How the results depend on the processing

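All 34 tested members kept their direction and their side of the threshold under DESeq2, the edgeR exact test, RLE scaling and no filter. With the codes as a replicate block (the paired fit), RB1 and TFDP2 passed as well, 4644 genes were higher and 4229 lower among all genes, and no other member changed its call. The adjusted p-values above are from the fit without the block unless stated. For the members that lost their call without 1 library, the paired fit of all libraries gave adjusted p-values as follows. They were 1.4e-12 for CCND1, 1.7e-06 for CCND2, 1.8e-19 for CCNE2, 4e-05 for E2F3 and 3.5e-05 for FBXW7. Without 1 library, 11 to 16 members were higher and 5 lower, and 1933 (without the siCRP2 library coded 1311) to 3128 genes were higher among all. Members near 0, none of which passed, changed sign. CDK6 was at -0.01 under filterByExpr, CDK2 at 0.01 and CDKN2D at 0.00 after thinning, and CDKN2D at 0.00 with the block. Without 1 library CDK6 ranged from -0.08 to 0.09, CDK2 from -0.08 to 0.08, CDKN2D from -0.06 to 0.03, CCNA2 from -0.08 to 0.18, CDKN2C from -0.26 to 0.10, CKS1B from -0.09 to 0.02, CKS2 from -0.06 to 0.02 and CDKN1B from -0.21 to 0.01. The cause was not tested. The median change of all genes was -0.086 to 0.015 over the alternatives. Precision is limited by 3 libraries a group and, for CCND2, by 94 counts in siCTR.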

Other observations

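The list of ubiquitin ligase components held subunits and regulators of SCF and APC/C, which degrade cyclins and CDK inhibitors, and of the cullin ligases built on CUL3, CUL4A and CUL4B, and its members changed in both directions. Of 29 tested, 10 were higher and 5 lower in siCRP2, 34.5% and 17.2%, against 21.9% and 17.8% of genes averaging 1 CPM or more, with a median change of 0.15. BTRC, an F-box protein of SCF, was at 45.1, 44.5 and 42.8 CPM in siCTR and at 65.8, 67.3 and 65.4 CPM in siCRP2, a change of 0.58 (SE 0.0879, adjusted p = 0.00011). ANAPC4, a subunit of APC/C, changed by 0.72 (SE 0.112, adjusted p = 0.00014) and COPS5, the subunit of the COP9 signalosome that removes NEDD8 from cullins, by 0.49 (SE 0.0906, adjusted p = 0.00066). CDC20 was at 158, 134 and 149 CPM in siCTR and at 95.1, 97.1 and 100.2 CPM in siCRP2, with no overlap. CUL4A, the cullin of a ligase other than SCF, and UBE2S, an enzyme that extends ubiquitin chains for APC/C, both changed by -0.39 (SE 0.0847 and 0.0942, adjusted p = 0.0023 and 0.0055).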
